A study of Mus musculus with 24 samples.

Results

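The genes described here encode the moving parts of the ciliary axoneme. They were chosen by name alone: all mouse genes whose RefSeq symbol starts with Dnah, Dnaic, Dnal, Dnaaf, Cfap, Rsph, Tekt or Drc followed by a digit, together with Dnali1. The RefSeq table holds 76 such genes, 60 of which had a probe on the array, and 54 of these were tested, out of 15895 genes tested in the whole series. Their levels were followed in whole lung tissue of healthy C57BL/6 mice at postnatal days 1, 4, 7 and 14, with 5 arrays each, and at day 42, with 4 arrays. The mice carried no stated allele and received no stated treatment, and the sample titles call the replicates biological without saying what each one is, so p-values measure the spread between these samples. Every sample is labelled postnatal, although the title of the series speaks of fetal lungs.

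Motile cilia cover the multiciliated cells of the airways, where their coordinated beat carries mucus out of the lung. Each cilium is built on a cylinder of doublet microtubules around a central pair. Outer and inner dynein arms on the doublets burn ATP and slide neighbouring doublets past each other, radial spokes and the nexin-dynein regulatory complex turn this sliding into a bend, and tektins and other proteins line the doublets. The arms are put together in the cytoplasm by dedicated assembly factors before they are carried into the cilium. Loss of many of these proteins causes primary ciliary dyskinesia in people.

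RNA was hybridised to 1-colour Agilent arrays. A level is given on a log2 scale on which 0 is the 75th percentile of the signal of the same array, so levels of different genes are not set against each other. Differences between ages are on the same log2 scale, given with their standard error (SE), and come from 1 limma fit over the 24 arrays. A gene passed the test when its p-value, adjusted by the Benjamini-Hochberg method over all 15895 genes, was under 0.05. With all arrays in the fit, n was 5 arrays for each of the 2 ages compared, or 4 at day 42.

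A set of 5 arrays, with replicate 4 of day 42, replicates 1 and 3 of day 4 and replicates 4 and 5 of day 1, differed from the other 19. Between 50.4% and 56.0% of their spots were well above background, against 57.0% to 79.7% on the other arrays. Their 75th percentile of signal lay between 476 and 979 intensity units, against 996 to 1653 on the others. After scaling, the median gene deviated from its own mean by 0.31 to 0.46 on these 5 arrays and by -0.16 to 0.04 on the others. Where leaving out these arrays changed the call of a member or the count of a gene list between day 42 and day 1, both results are given. Every result without the 5 arrays rests on 3 arrays each at days 1, 4 and 42. The number of arrays limits the precision. Sperm, which also has an axoneme, was followed through 10 sperm and testis genes, 5 of which had a probe above background on enough arrays to be tested, and 0 of these 5 passed limma's test between day 42 and day 1, with 1 lower at an unadjusted p under 0.05. That list had 1 of 5 lower without the 5 arrays. Between these ages 26.7% of all genes passed in either direction with all arrays and 46.6% without the 5.

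Most axoneme genes were highest in the young adult lung. Of the 54 tested members, 40 had their highest mean at day 42, an age that held the highest mean of 25.3% of all tested genes. The lowest mean fell at day 7 for 30 of the 54, against 28.9% of all genes. As an average over the 54 genes, the deviation from each gene's own mean over the 24 arrays was -0.15 ± 0.12 at day 1, -0.13 ± 0.15 at day 4, -0.31 ± 0.27 at day 7, 0.07 ± 0.13 at day 14 and 0.65 ± 0.05 at day 42 (SD, n = 5, and 4 at day 42). The 4 day 42 arrays lay between 0.58 and 0.69, above all 20 arrays of the younger ages, the highest of which reached 0.20. In whole tissue, fewer cells of a type and less RNA per cell cannot be told apart.

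**Figure D1:**
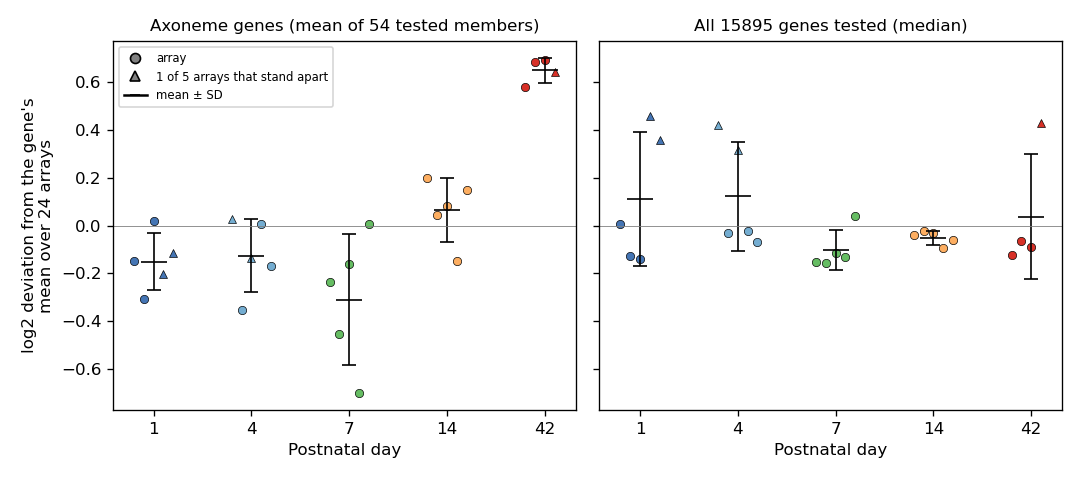
Deviation (log2) from each gene's mean over the 24 arrays, by postnatal day: the mean over the 54 tested axoneme genes (left) and the median over all 15895 genes tested (right). Each point is an array, triangles are the 5 arrays that stand apart, and bars are the mean and SD of the arrays of an age. The 4 day 42 arrays sit between 0.58 and 0.69 for the axoneme genes, whereas for all genes the triangles sit highest.

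Across the 5 ages, 36 of the 54 members passed limma's moderated F-test, against 31.8% of all genes. Between day 42 and day 1, 29 members were higher and 2 lower at day 42, where 26.7% of all genes passed in either direction, 13% of all genes being higher and 13.7% lower. The median difference of the 54 members was 0.77, a 1.71-fold increase, and that of all genes was -0.06. In 24 members every day 42 array lay above every day 1 array, against 8.64% of all genes, and in 1 member every day 42 array lay below, against 7.86%. Within the 3 slides the median difference of the members was 0.74, 1.00 and 1.03, where that of all genes was -0.29, -0.16 and 0.57. Of the 31 members that passed, 27 had the same direction on all 3. The exceptions, all on slide 3, were Dnah5 at -0.13, Rsph4a at -0.61, Cfap53 at -0.58 and Dnaaf2 at 0.22. Slide 3 held 1 array of each age. The 31 were called on these same arrays, so their direction within slides is not an independent test. Without the 5 arrays, all 31 passed again and 9 more rose, Dnah8, Dnaic1, Dnaic2, Dnaaf4, Dnaaf6b, Tekt1, Tekt4, Cfap69 and Cfap126, while the share of all genes that passed was then 46.6%.

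**Figure D2:**
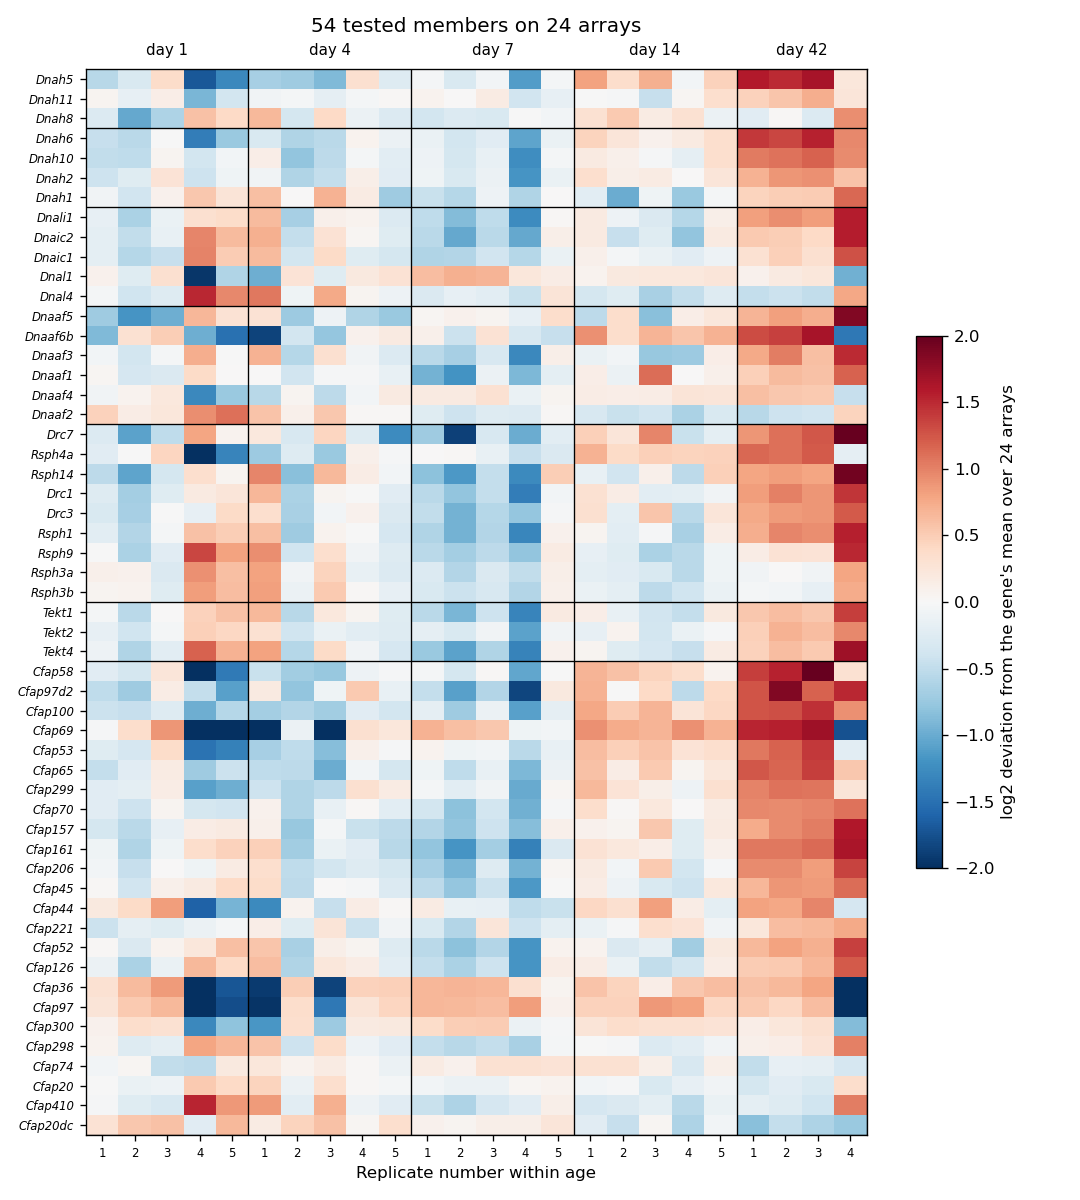
log2 deviation of each of the 54 tested members from its mean over the 24 arrays (red above, blue below, colour limited at 2 in either direction), with rows grouped by role from outer-arm heavy chains at the top to Cfap genes at the bottom and columns by postnatal day. Most rows are red across day 42, and the Cfap36, Cfap97, Cfap69 and Cfap300 rows are darkest blue on the 5 arrays that stand apart.

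Outer-arm heavy chains are the large motor subunits that set the beat frequency. Dnah5, the heavy chain most often mutated in primary ciliary dyskinesia, ranged from -0.83 to 0.59 at day 42, with a median of 0.48, against -2.75 to -0.69 at day 1, with a median of -1.61. It rose by 1.94 ± 0.37 (adjusted p = 3.56e-04, limma), a 3.83-fold increase. Dnah11, its partner in the part of the cilium nearest the cell, had levels of 0.13, 0.23, 0.40 and -0.08 on the day 42 arrays, against -0.27, -0.48, -0.19, -1.24 and -0.70 on the day 1 arrays. These groups did not overlap, and the difference was 0.75 ± 0.19 (adjusted p = 0.00531, limma). Dnah8, a heavy chain best known from the sperm tail, had levels of 0.68, 0.94, 0.63 and 1.83 at day 42, against 0.63, -0.11, 0.29, 1.50 and 1.31 at day 1. Its highest values at both ages came from arrays among the 5 that stand apart, and its difference of 0.30 ± 0.30 did not pass with all arrays (adjusted p = 0.516, limma). Without those arrays it was 0.48 ± 0.18 (adjusted p = 0.0356, limma).

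Inner-arm heavy chains shape the bend. Dnah6 had levels of 1.26, 1.17, 1.71, 0.34 and 0.98 on the day 1 arrays, 1.42, 1.12, 1.18, 1.79 and 1.60 at day 4, and 1.58, 1.35, 1.49, 0.66 and 1.58 at day 7. Its levels were 2.17, 1.96, 1.80, 1.90 and 2.05 at day 14 and 3.13, 3.05, 3.26 and 2.69 at day 42. The first 3 ages overlapped, all day 14 arrays lay above them, and all day 42 arrays lay above day 14. Day 42 exceeded day 1 by 1.94 ± 0.23 (adjusted p = 1.29e-06, limma), a 3.83-fold increase, and day 14 by 1.06 ± 0.23 (adjusted p = 0.011, limma). Dnah10 had levels of 1.70, 1.75, 1.85 and 1.61 at day 42, against 0.85, 0.77, 0.64, 0.48 and 1.01 at day 14 and 0.17, 0.16, 0.72, 0.30 and 0.61 at day 1. The day 42 arrays overlapped neither younger age, with differences of 0.98 ± 0.23 over day 14 (adjusted p = 0.0148, limma) and 1.33 ± 0.23 over day 1 (adjusted p = 9.11e-05, limma). Dnah2 rose by 0.95 ± 0.21 over day 1 (adjusted p = 0.00138, limma). Dnah1 rose over day 14, by 1.06 ± 0.27 (adjusted p = 0.0284, limma). Over 36 other settings this difference was as low as 0.35, and it did not pass in 6. The Dnah1 difference over day 1, 0.56 ± 0.27, did not pass (adjusted p = 0.138, limma). Thus 3 of the 4 tested inner-arm heavy chains and 2 of the 3 outer-arm ones rose over day 1.

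Intermediate and light chains anchor the arms and tune the motors. Of the 5 intermediate and light chains, only Dnali1, the light intermediate chain of inner arms, passed between day 42 and day 1 with all arrays. The share of all genes that passed in either direction was 26.7%. Dnali1 had levels of 1.82, 1.94, 1.85 and 2.58 at day 42, against 0.84, 0.37, 0.87, 1.33 and 1.38 at day 1, with no overlap and a difference of 1.09 ± 0.28 (adjusted p = 0.00455, limma). The outer-arm intermediate chains Dnaic1 and Dnaic2 differed by 0.54 ± 0.29 and 0.60 ± 0.33 and did not pass with all arrays (adjusted p = 0.185 and 0.205, limma). Without the 5 arrays both rose, by 0.77 ± 0.13 and 0.76 ± 0.28 (adjusted p = 1.38e-04 and 0.033, limma). The light chain Dnal4 had levels of 2.61, 2.66, 2.59 and 3.86 at day 42, against 3.05, 2.68, 2.82, 4.59 and 4.05 at day 1. Its 3 highest values were from arrays that stand apart, and its difference of -0.51 ± 0.35 did not pass (adjusted p = 0.324, limma). Dnal1, another outer-arm light chain, differed by 0.36 ± 0.35 (adjusted p = 0.506, limma).

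Among 6 tested dynein assembly factors, 3 rose and 1 fell between day 42 and day 1 with all arrays. Of all genes, 13% rose and 13.7% fell. Dnaaf5 had levels of 2.09, 2.22, 2.14 and 3.25 at day 42, against 0.70, 0.23, 0.43, 2.08 and 1.70 at day 1, with no overlap and a rise of 1.39 ± 0.35 (adjusted p = 0.00455, limma). The 2 highest day 1 arrays and the highest day 42 array were those that stand apart. Dnaaf3 had levels of 0.89, 1.15, 0.73 and 1.62 at day 42, against 0.07, -0.24, 0.08, 0.86 and 0.11 at day 1. Its groups overlapped through 1 day 1 array, and it rose by 0.92 ± 0.30 (adjusted p = 0.0235, limma). Dnaaf1 rose by 0.76 ± 0.25 (adjusted p = 0.0269, limma), with its probe well above background on 17 of the 24 arrays and on 1 of 5 at day 7. Over 35 other settings its difference was as low as 0.02, and it did not pass in 6. Dnaaf2, also called kintoun, fell by 0.80 on the log2 scale, SE 0.22 (adjusted p = 0.0074, limma). Its levels were -1.05, -0.92, -0.88 and -0.06 at day 42, against -0.04, -0.35, -0.27, 0.43 and 0.61 at day 1, and the groups overlapped through day 42 replicate 4 alone. Dnaaf4 and Dnaaf6b had differences of 0.67 ± 0.27 and 1.23 ± 0.52 that did not pass with all arrays (adjusted p = 0.0687 and 0.0854, limma). Both rose without the 5 arrays, by 0.48 ± 0.11 and 1.47 ± 0.29 (adjusted p = 0.0016 and 5.38e-04, limma).

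Of the 9 tested radial spoke and nexin-dynein regulatory complex genes, 6 rose and none fell between day 42 and day 1. Among all genes 13% rose and 13.7% fell. Drc1, a scaffold of the regulatory complex, had levels of 1.84, 1.40, 1.84, 2.27 and 2.34 at day 1, 2.75, 1.45, 2.13, 2.07 and 1.85 at day 4, and 1.55, 1.30, 1.62, 0.70 and 2.04 at day 7. At day 14 they were 2.39, 2.24, 1.88, 1.89 and 2.02, and at day 42 they were 2.93, 3.09, 2.97 and 3.52. All day 42 arrays lay above all others, and the rise over day 1 was 1.19 ± 0.26 (adjusted p = 0.00132, limma). Drc3 and Drc7, of the same complex, rose by 1.08 ± 0.25 and 1.50 ± 0.40. Neither passed with normexp background correction (adjusted p = 0.0678 and 0.174, limma). Rsph1 and Rsph4a, which form the spoke head, rose by 1.00 ± 0.29 and 1.47 ± 0.38, and Rsph14 by 1.39 ± 0.38, with adjusted p from 0.00204 to 0.0133 over these 5 (limma). A second, dimmer Rsph4a probe gave a similar difference of 1.53 that did not pass in a separate fit over probes (adjusted p = 0.129 over all probes tested, limma). The spoke stalk gene Rsph3b had levels of 4.22, 4.20, 4.09 and 4.99 at day 42, against 4.31, 4.31, 4.01, 5.08 and 4.86 at day 1. Its difference of -0.14 ± 0.24 did not pass (adjusted p = 0.717, limma), nor did those of its near-identical copy Rsph3a, at -0.12 ± 0.25, or of the spoke head gene Rsph9, at 0.30 ± 0.36. Array probes may not tell Rsph3a and Rsph3b apart.

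Tektins are filament proteins inside the doublet wall. Tekt2 rose by 0.63 ± 0.22 between day 42 and day 1 (adjusted p = 0.0324, limma). Tekt1 had levels of 2.39, 2.46, 2.38 and 3.22 at day 42, against 1.81, 1.31, 1.85, 2.30 and 2.42 at day 1, a difference of 0.67 ± 0.29 that did not pass (adjusted p = 0.0982, limma). Tekt4 had levels of 1.48, 1.63, 1.54 and 2.71 at day 42, against 0.91, 0.42, 0.81, 2.20 and 1.72 at day 1, a difference of 0.63 ± 0.36 (adjusted p = 0.221, limma). For both, the arrays that stand apart held the highest values of their age and made the groups overlap. Without them Tekt1 rose by 0.76 ± 0.29 and Tekt4 by 0.84 ± 0.27 (adjusted p = 0.0423 and 0.018, limma).

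**Figure D3:**
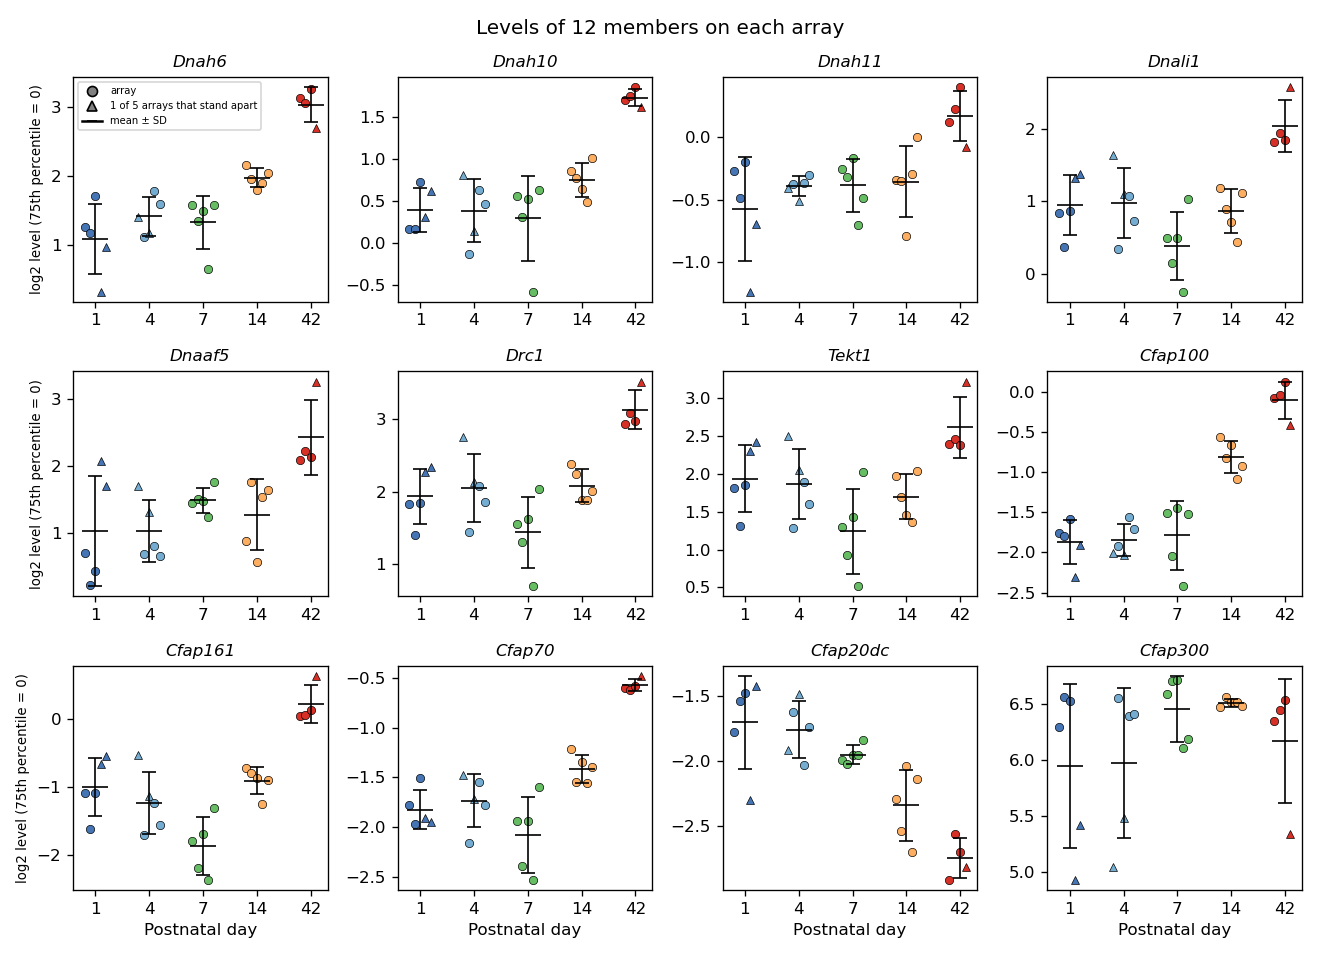
log2 level (0 is the 75th percentile of the array) of 12 members on each array, by postnatal day, with the mean and SD of each age. Triangles mark the 5 arrays that stand apart. Dnah6, Cfap100 and Cfap70 are highest on all 4 day 42 arrays, Cfap20dc runs the other way, and the Cfap300 triangles sit below the other arrays of their ages.

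The Cfap genes are named for their place in cilia and flagella and hold many unrelated proteins. Of 24 tested, 13 rose and 1 fell between day 42 and day 1 with all arrays. Among all genes 13% rose and 13.7% fell. Cfap100, which in the alga Chlamydomonas helps hold an inner arm on the doublet, had levels of -1.76, -1.79, -1.58, -2.31 and -1.91 at day 1, -2.01, -1.92, -2.03, -1.56 and -1.70 at day 4, and -1.50, -2.05, -1.45, -2.41 and -1.52 at day 7. It stood at -0.57, -0.82, -0.66, -1.08 and -0.92 at day 14 and at -0.08, -0.04, 0.13 and -0.42 at day 42. The first 3 ages overlapped, and each later age lay wholly above them. Day 42 exceeded day 1 by 1.77 ± 0.20 (adjusted p = 6.06e-07, limma), a 3.41-fold increase and the smallest adjusted p among the members. Cfap70, a component of outer dynein arms, had levels of -1.78, -1.97, -1.50, -1.91 and -1.95 at day 1, -1.48, -2.16, -1.72, -1.54 and -1.78 at day 4, and -1.94, -2.39, -1.93, -2.53 and -1.59 at day 7. It had -1.22, -1.55, -1.35, -1.55 and -1.39 at day 14 and -0.60, -0.62, -0.59 and -0.48 at day 42. Again no day 42 array overlapped a younger age, and the rise over day 1 was 1.25 ± 0.18 (adjusted p = 1.24e-05, limma).

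Cfap161, a protein of the doublet lumen, had levels of -1.09, -1.61, -1.10, -0.66 and -0.54 at day 1 and -0.53, -1.71, -1.13, -1.23 and -1.56 at day 4. At day 7 they were -1.80, -2.19, -1.69, -2.37 and -1.31, at day 14 -0.72, -0.79, -0.87, -1.25 and -0.90, and at day 42 0.04, 0.05, 0.12 and 0.63. The day 7 arrays lay below all day 14 arrays, and the day 42 arrays above all others. Day 42 exceeded day 1 by 1.21 ± 0.25 (adjusted p = 8.11e-04, limma). Other lumenal proteins of the doublet rose too, Cfap53 by 1.46 ± 0.34, Cfap45 by 0.81 ± 0.22 and Cfap52 by 0.76 ± 0.26 (adjusted p = 0.00198, 0.00745 and 0.0345, limma). Further members that passed were Cfap58, at 2.13 ± 0.40 the largest difference of any member, Cfap97d2 at 1.98 ± 0.34, Cfap65 at 1.41 ± 0.23, Cfap299 at 1.32 ± 0.28, Cfap157 at 1.22 ± 0.24, Cfap206 (adjusted p = 6.26e-04, limma) and Cfap221, a central apparatus protein, at 0.76 ± 0.18.

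Cfap20dc fell. Its levels were -2.91, -2.56, -2.70 and -2.81 at day 42, against -1.78, -1.54, -1.48, -2.30 and -1.42 at day 1, and every day 42 array lay below every day 1 array. It dropped by 1.04 on the log2 scale, SE 0.18 (adjusted p = 1.07e-04, limma), so that day 1 exceeded day 42 by 2.06-fold. The other 10 Cfap genes did not pass with all arrays. Among them, Cfap126 rose without the 5 arrays, by 0.87 ± 0.27 (adjusted p = 0.0145, limma). Cfap300, needed for assembly of dynein arms, had levels of 6.35, 6.45, 6.54 and 5.34 at day 42, against 6.29, 6.56, 6.52, 4.93 and 5.42 at day 1. Its low values were those of the arrays that stand apart, and its difference was 0.22 ± 0.34 with all arrays and -0.02 ± 0.14 without the 5. Cfap36, Cfap97 and Cfap69 were likewise lowest on these arrays, as the map of deviations shows. Their differences were 0.38 ± 0.67, 0.36 ± 0.65 and 1.61 ± 0.78 with all arrays and 0.08 ± 0.17, 0.03 ± 0.17 and 1.19 ± 0.23 without the 5, where only Cfap69, a central pair protein, passed (adjusted p = 4.01e-04, limma).

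Probes of the same gene did not always move alike. Probes other than the brightest were read in a separate limma fit over probes, with p adjusted over all probes tested in it. The brightest Cfap74 probe, which stood for the gene, had levels of 4.66, 4.99, 4.97 and 4.83 at day 42, against 5.10, 5.20, 4.66, 4.63 and 5.35 at day 1, a difference of -0.13 ± 0.17 (adjusted p = 0.627, limma). The dimmest Cfap74 probe, well above background on 6 of the 24 arrays, rose by 1.79 (adjusted p = 2.68e-04, limma). A further Cfap74 probe, well above background on 18 arrays, differed by 0.64 and did not pass (adjusted p = 0.404, limma). Dimmer probes of Dnaaf4, Cfap44 and Tekt1 also rose where the brightest probe did not pass, by 1.11, 1.31 and 0.70. The brightest probes of these genes differed in the same direction, by 0.67, 0.78 and 0.67. A pass beside a probe that did not pass is therefore not by itself a difference between probes. Whether such probes measure the same transcript was not tested.

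**Figure D4:**
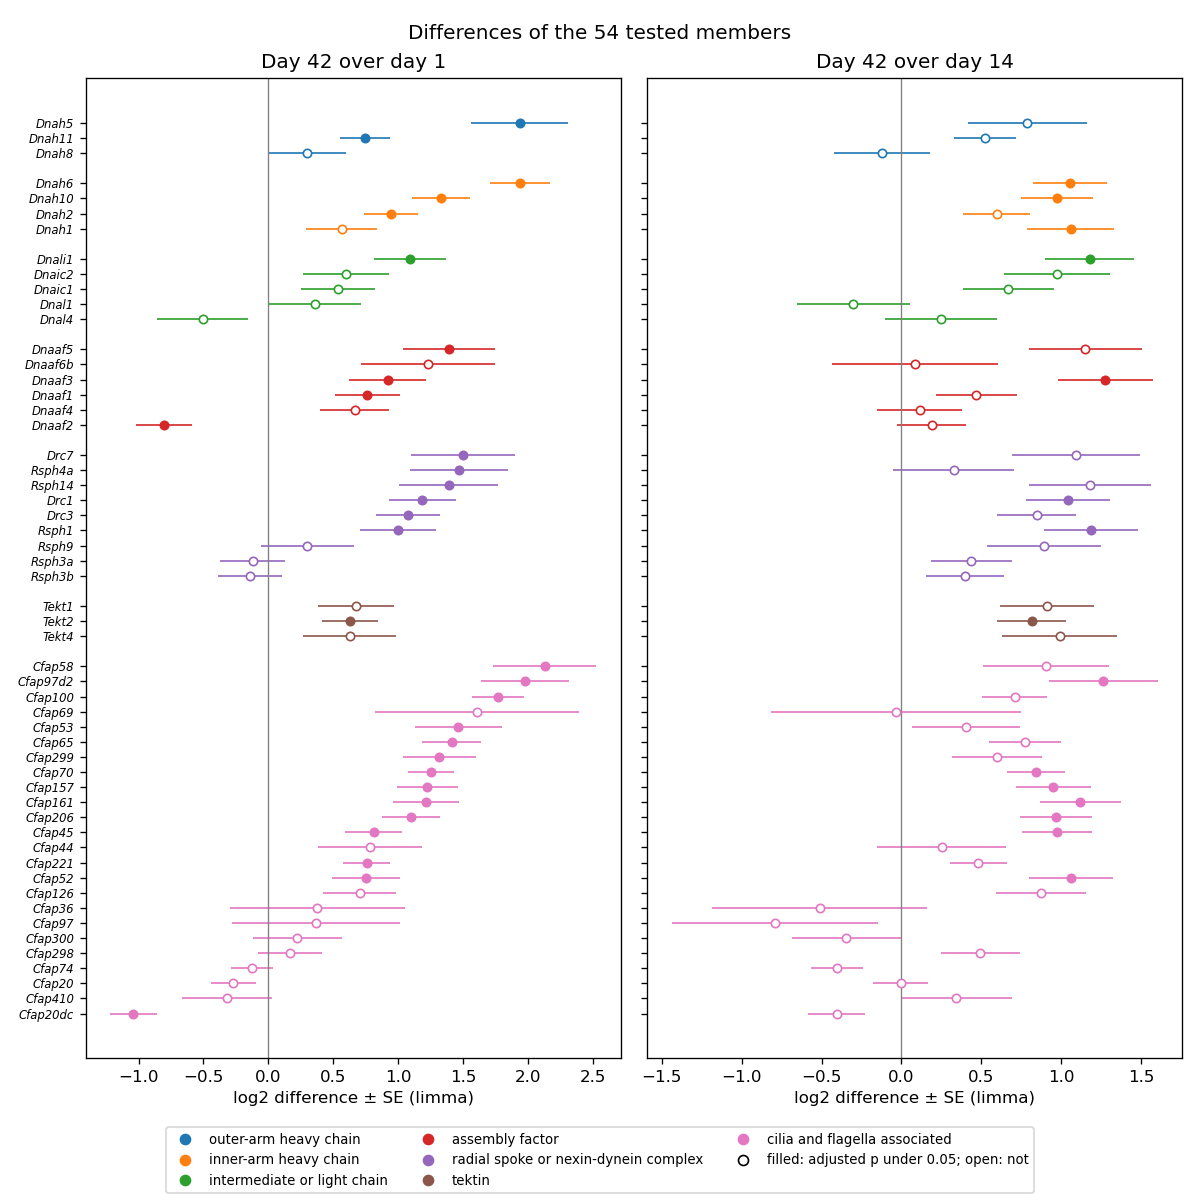
Fitted log2 difference with its SE (limma) for the 54 tested members, for day 42 over day 1 (left) and day 42 over day 14 (right). Colours give the role, and filled points have an adjusted p under 0.05. On the left 29 filled points lie above 0 and 2 below, Dnaaf2 and Cfap20dc, and on the right 15 lie above 0.

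In the first postnatal week no member passed. Between day 4 and day 1, 0 of 54 passed, against 0.0629% of all genes (limma), and 0 had an unadjusted p under 0.05, against 5.14% of all genes. Between day 7 and day 4, again 0 of 54 passed, against 0.00629% of all genes (limma), while 15 were lower and 0 higher at an unadjusted p under 0.05, where 6.45% of all genes were lower and 2.03% higher. The median difference of the members was -0.29, and that of all genes -0.23. Without the 5 arrays, 2 of which are day 4 arrays, it was -0.15 for the members and -0.04 for all genes, and 1 member was lower and 1 higher at an unadjusted p under 0.05.

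Between day 14 and day 7, 5 members rose and none fell, where 11.6% of all genes passed, 6.04% of all genes being higher and 5.54% lower. They were Cfap100 at 0.98 ± 0.19 (adjusted p = 0.00119, limma), Cfap161 at 0.96 ± 0.24 (0.0087), Dnaaf1 at 0.92 ± 0.24 (0.0116), Cfap70 at 0.66 ± 0.17 (0.0105) and Cfap65 at 0.66 ± 0.21 (0.0459). The median difference was 0.45 over the members and 0.02 over all genes, and 45 of the 54 members were above 0. In 11 members the day 14 arrays lay wholly above the day 7 arrays, against 8.56% of all genes, and in 1, Cfap20dc, wholly below, against 8.11%. Of the 36 other settings tried, Cfap65 did not pass in 19, and without day 7 replicate 5 the count of members past the test was 10. Dnaaf1, not well above background on most day 7 arrays, was tested in 35 of these settings. It did not pass in 3, with normexp background correction, quantile normalization and median scaling. Without the 5 arrays, none of which belongs to these ages but all of which enter the shared estimate of spread, 24 members rose and 1 fell, and 38.6% of all genes passed. The median of the members stayed at 0.45.

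Between day 42 and day 14, 15 members rose and none fell, where 3.69% of all genes passed, 2.18% of all genes being higher and 1.51% lower. The smallest adjusted p belonged to Cfap70 at 0.84 ± 0.18 (0.00863, limma), Dnah6 at 1.06 ± 0.23 (0.011) and Cfap161 at 1.12 ± 0.25 (0.0124). The largest rise was that of Dnaaf3, at 1.28 ± 0.30 (adjusted p = 0.0151, limma), and Cfap97d2 rose by 1.26 ± 0.34, Rsph1 by 1.18 ± 0.29, Dnali1 by 1.18 ± 0.28, Cfap52 by 1.06 ± 0.26, Drc1 by 1.04 ± 0.26, Cfap45 by 0.97 ± 0.22, Cfap206 by 0.97 ± 0.22, Cfap157 by 0.95 ± 0.24 and Tekt2 by 0.82 ± 0.22, beside Dnah1 and Dnah10 given above. Of these 15, 14 also rose over day 1, Dnah1 being the exception. The median difference was 0.74 over the members and 0.07 over all genes. In 28 members the day 42 arrays lay wholly above the day 14 arrays, against 7.64% of all genes, and in 0 wholly below, against 3.88%. Within the 3 slides the median was 0.43, 0.87 and 0.90 for the members and -0.05, -0.01 and 0.48 for all genes. All 15 members kept their direction on each slide, but they were called on these same arrays. Slide 1 held 1 array of each age. Leaving out replicate 4 of day 42 gave 6 calls, leaving out replicate 2 of that age gave 9, and leaving out replicate 4 of day 14 gave 7. The count was 28 without the 5 arrays, where 13.6% of all genes passed.

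Other genes of the motile cilium also rose. Of 30 tested axoneme, docking and assembly genes that carry other names, 12 rose and none fell between day 42 and day 1, with a median difference of 0.61. They included Hydin, a giant central apparatus protein, at 1.34 ± 0.18 (adjusted p = 6.65e-06, limma), the central apparatus gene Spag6l at 1.34 ± 0.20, the kinesin Kif9 at 1.26 ± 0.17, the outer-arm docking gene Ttc25 at 1.64 ± 0.25, the adenylate kinase Ak7 at 1.44 ± 0.25 and Nme9 at 1.42 ± 0.27. Between day 42 and day 14, 8 of the 30 rose, and between day 14 and day 7, 4 rose. Leaving out the 5 arrays, 16 rose and 2 fell between day 42 and day 1, with a median of 0.68, 12 rose between day 42 and day 14, and 13 rose and 1 fell between day 14 and day 7. In these 3 comparisons 26.7%, 3.69% and 11.6% of all genes passed with all arrays. Without the 5 arrays 46.6%, 13.6% and 38.6% did.

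Genes that mark ciliated cells but are not members rose over the same ages. Of 16 tested, 11 rose and none fell between day 42 and day 1, with a median of 1.02, among them Cdhr3, a cadherin of ciliated cells, at 2.04 ± 0.23 and Fam183b at 1.70 ± 0.25. The summed level of the 16, in multiples of the 75th percentile of signal, was 134 to 287 at day 42, against 96.0 to 262 at day 1, and the highest array of each age was one of those that stand apart. On the 19 other arrays 13 of the 16 rose, with a median of 1.07. There 46.6% of all genes passed in either direction, against 26.7% with all arrays. The part that the number of ciliated cells has in the rise of the members was not tested.

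Regulators of motile ciliogenesis switch the program on. Of 10 tested, 0 rose and 1 fell between day 42 and day 1 with all arrays (limma), with a median of 0.05, and 2 were higher and 2 lower at an unadjusted p under 0.05. Ccno, which drives the making of basal bodies, fell by 1.22 on the log2 scale, SE 0.36 (adjusted p = 0.0131, limma). Foxj1, the master transcription factor of motile cilia, had a median level of 2.25 at day 42, against 1.48 at day 1, a difference of 0.80 that did not pass (adjusted p = 0.0604, limma). Without the 5 arrays, 3 of the 10 rose and 3 fell. Among all genes, 26.7% passed in either direction with all arrays and 46.6% without the 5. Genes of intraflagellar transport and the primary cilium, the carriers and sensors found in nearly all cells, were set beside them. Of 28 tested, 3 rose and 2 fell, with a median of 0.13, and Ift20, Ift27, Ift43 and Ift46, the members of that list with the highest levels, had differences from -0.54 to -0.04 that did not pass. Of the 28, 5 rose and 3 fell without the 5 arrays, with a median of -0.01.

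Markers of other airway and lung cells were read the same way between day 42 and day 1. The share of all genes that passed in either direction was 26.7% with all arrays and 46.6% without the 5 arrays. Of 11 club cell markers, 7 rose and none fell, with a median of 2.02, including the secretoglobin Scgb1a1 at 1.30 ± 0.28. Of 5 goblet cell markers 2 rose, the mucin Muc5b at 4.22 ± 1.21 and Tff2 at 4.71 ± 1.37, and of 7 basal cell markers 1 rose and 2 fell. On the 19 other arrays 7 club cell markers rose, 0 goblet cell markers passed (limma), with 1 higher at an unadjusted p under 0.05, and of the basal cell markers 1 rose and 1 fell. Of 11 pan-epithelial genes, 0 passed (limma) and 1 was higher at an unadjusted p under 0.05, with a median of 0.07. Those with the highest levels, Krt18, Cldn3, Foxa2 and Krt19, had differences from -0.13 to 0.21. Without the 5 arrays 3 of these 11 rose, with a median of 0.33. Alveolar type 1 markers had 2 of 7 higher. Alveolar type 2 markers had 0 of 8 past the test (limma) and 1 higher at an unadjusted p under 0.05, while 8 neuroendocrine markers had 1 higher and 1 lower. Leaving out the 5 arrays, 5 of the 7 type 1 markers and 4 of the 8 type 2 markers rose, with medians of 0.62 and 0.42, and the neuroendocrine counts were the same. Of the other tissues that a lung sample can hold, mesothelium had 3 of 6 genes higher and 1 lower, tracheal cartilage 3 of 7 lower, among them Col2a1 at -4.89 ± 1.04, and skeletal muscle 2 of 6 lower. Mesothelium had 2 higher and 1 lower without the 5 arrays, and the counts for cartilage and skeletal muscle were the same. Cardiac muscle had 0 of 8 past the test (limma) and 0 at an unadjusted p under 0.05. All 12 cell cycle genes were lower at day 42, with a median of -3.60. The part of these shifts in the results for the axoneme genes was not tested.

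**Figure D5:**
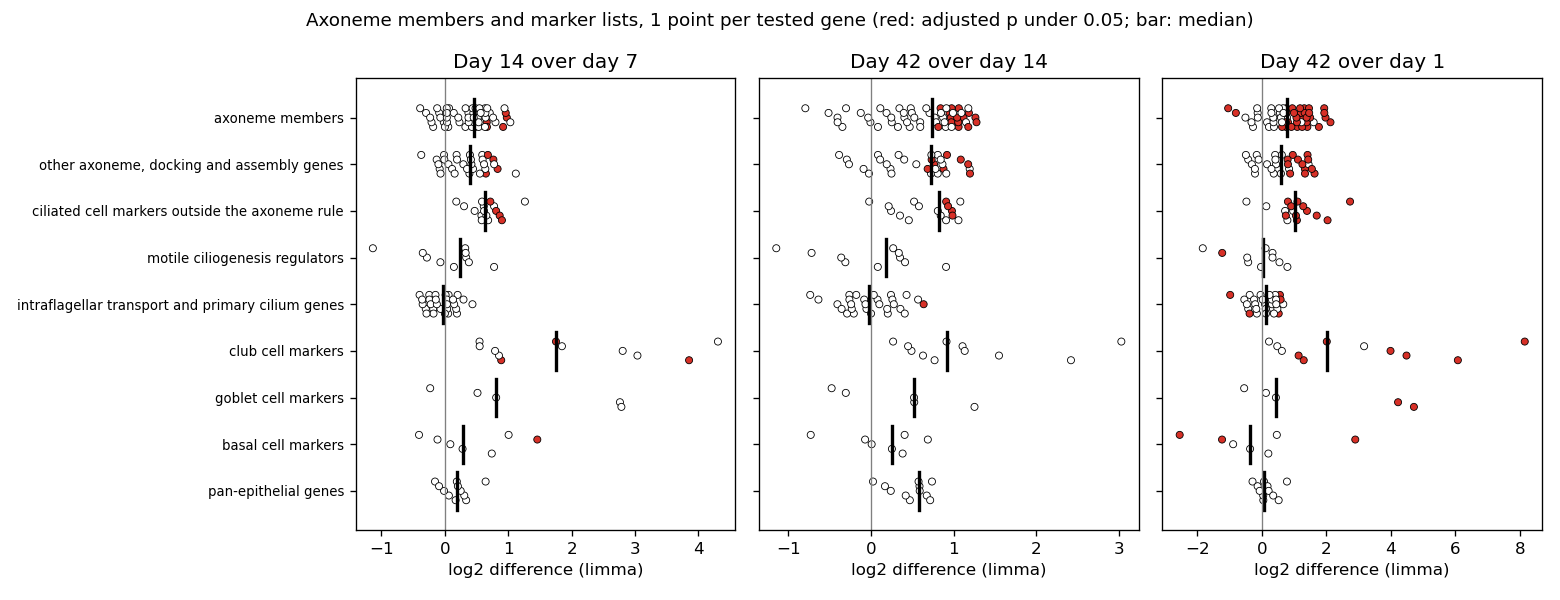
Fitted log2 difference of each tested gene of the axoneme members and of 8 other gene lists, for day 14 over day 7 (left), day 42 over day 14 (middle) and day 42 over day 1 (right). Red points have an adjusted p under 0.05 (limma) and black bars are medians. For day 42 over day 1 the medians are 0.77 for the members, 0.61 for other axoneme genes, 1.02 for ciliated cell markers and 0.07 for pan-epithelial genes.

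Within an age, the members varied together to different degrees. With the mean of each age taken out, 23 of the 54 had a Pearson correlation above 0.5, over the 24 arrays, with the mean of the other members, and 7 had one below 0. Cfap70 at 0.92, Cfap97d2 at 0.88, Dnah10 at 0.87 and Cfap45 at 0.85 were highest. Cfap97 at -0.28, Cfap36 at -0.19, Cfap69 at -0.15 and Cfap300 at -0.13 were lowest. All 4 had their 5 lowest levels on the arrays that stand apart, as did Dnaaf4 and Dnal1. The 10 other genes most like the mean of the members by this measure were Cxcl17 at 0.94, Ttc29 at 0.92, Lrrc74b, 1700028P14Rik, Armc3, Iqca, Cdhr3 and Dydc2 at 0.91, Nme5 at 0.90 and Ccdc78 at 0.89. These are descriptions over arrays that share depth, scaling and tissue makeup.

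Because many members moved together, their promoters were read for the core of the X-box, the motif bound by RFX factors, which act with Foxj1 on ciliary genes. RefSeq windows of 300 bases, 250 before and 50 after the start site on GRCm38.p6, were at hand for 65 of the 76 members. The RFX core GTTGCC, searched on both strands, where it reads GGCAAC on the other, was present for 26 of the 65 members, or 40%, and for 14.1% of all 27025 genes with a window. It was present for 8 of the 22 members with a window that rose between day 42 and day 1, for 13 of the 24 other tested members and for 5 of the 19 not tested or without a probe. The forkhead core GTAAACA, on both strands, was present for 4 of the 65, or 6.15%, and for 4.05% of all genes. The full X-box palindrome, GTTNCC and GGNAAC with 2 bases between them, which reads the same on both strands, can contain the RFX core and was searched after the core had been counted, was present for 4 of the 65, Cfap20dc, Cfap298, Dnaaf6 and Dnaaf6b, or 6.15%, and for 0.529% of all genes. A match is a description of the letters in these windows.

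The windows of 3 members that rose, the member that fell with a full palindrome and a member that did not pass with 4 copies of the core are shown 5′ to 3′ on the strand of the gene, with each RFX core in capitals. Cfap161 (chr7:83794790-83795089, minus strand) holds 3 cores, Dnah10 (chr5:124724835-124725134, plus strand) holds 2 and Drc1 (chr5:30281143-30281442, plus strand) holds 1. Cfap20dc (chr14:8666241-8666540, minus strand) holds 2 cores that face each other in 1 palindrome, and Cfap298 (chr16:90934800-90935099, minus strand), which differed by 0.16 ± 0.25 between day 42 and day 1, holds 4, with 1 palindrome.
Cfap161: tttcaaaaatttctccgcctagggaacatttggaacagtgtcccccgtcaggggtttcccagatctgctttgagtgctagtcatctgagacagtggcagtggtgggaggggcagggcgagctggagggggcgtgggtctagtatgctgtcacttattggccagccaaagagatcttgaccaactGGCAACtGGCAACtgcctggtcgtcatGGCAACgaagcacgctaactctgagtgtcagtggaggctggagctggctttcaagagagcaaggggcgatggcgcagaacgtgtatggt
Dnah10: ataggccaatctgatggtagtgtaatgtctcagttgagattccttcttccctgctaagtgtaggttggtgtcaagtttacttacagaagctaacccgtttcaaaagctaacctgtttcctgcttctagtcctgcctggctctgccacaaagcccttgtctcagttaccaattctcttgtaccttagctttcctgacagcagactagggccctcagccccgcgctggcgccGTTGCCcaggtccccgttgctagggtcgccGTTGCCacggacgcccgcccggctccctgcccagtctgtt
Drc1: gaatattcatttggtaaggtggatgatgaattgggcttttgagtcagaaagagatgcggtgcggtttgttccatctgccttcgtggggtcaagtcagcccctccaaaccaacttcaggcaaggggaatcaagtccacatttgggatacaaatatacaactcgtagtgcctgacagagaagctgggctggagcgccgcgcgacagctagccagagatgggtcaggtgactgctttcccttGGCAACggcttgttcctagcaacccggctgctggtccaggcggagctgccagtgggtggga
Cfap20dc: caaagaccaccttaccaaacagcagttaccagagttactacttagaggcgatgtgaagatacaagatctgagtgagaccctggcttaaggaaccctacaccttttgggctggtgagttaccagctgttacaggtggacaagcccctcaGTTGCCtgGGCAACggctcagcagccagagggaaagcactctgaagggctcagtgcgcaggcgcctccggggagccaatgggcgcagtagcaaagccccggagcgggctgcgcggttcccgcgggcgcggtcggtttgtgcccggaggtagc
Cfap298: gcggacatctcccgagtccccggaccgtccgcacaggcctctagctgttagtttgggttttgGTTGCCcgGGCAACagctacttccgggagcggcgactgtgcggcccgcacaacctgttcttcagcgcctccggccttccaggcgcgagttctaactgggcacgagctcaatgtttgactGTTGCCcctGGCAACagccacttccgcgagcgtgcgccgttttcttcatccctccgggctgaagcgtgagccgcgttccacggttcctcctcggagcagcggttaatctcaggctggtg
Thus the core occurred both in promoters of members that rose and in those of members that fell or did not pass.

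The array had no probe for 16 members: the heavy chains Dnah3, Dnah7a, Dnah7b, Dnah7c, Dnah12, Dnah14 and Dnah17, the tektin Tekt5, and Cfap43, Cfap46, Cfap47, Cfap54, Cfap57, Cfap73, Cfap77 and Cfap99. Another 6 had a probe that was well above background on fewer than 4 arrays and were not tested. These were Dnah9, an outer-arm heavy chain, and Tekt3, Cfap61, each well above background on 1 array, Rsph6a, a spoke head protein of the sperm tail, on 2, and Dnaaf6 and Cfap97d1 on 0.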

How the data were processed

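The members and gene lists were chosen with earlier results of these data known. Total RNA of the 24 whole lung samples was isolated with a miRNeasy mini kit and, per the labels' protocols, labelled with Cy3. The labels do not say whether a sample is 1 lung or a pool. The Agilent arrays lay on 3 slides with 8 arrays each. Per the file headers, Feature Extraction 10.7.3.1 made the processed signal, an intensity with background subtracted, while version 10.7.1.1 stands in the submitters' processing notes. The authors deposited a table of log2 values as well, each array being close to log2 of its processed signal plus a shift, by a method not given in the sources used here; its median per array, centring and exact scale differ from the scans, and it was used as an alternative only. The same deposited scans mark each spot with 0 or 1 for being saturated (0 spots were), not uniform or well above background.

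Here, log2 of the processed intensity was taken minus log2 of the 75th percentile over the 59305 non-control spots of each array. Non-uniform spots were left out, and spots of a probe averaged, leaving 55543 probes. Probes were named by accession through RefSeq's table of GRCm38.p6, which matched 25998 of 32260 probes with such an accession, for 19722 genes. A gene was read from its brightest probe, by mean log2 level, and tested where at least 4 arrays had this probe well above background. limma 3.58.1 in R 4.3.3 fitted 1 mean per age (residual degrees of freedom 19, prior degrees of freedom 2.97), with Benjamini-Hochberg adjustment over all genes tested, and was tested on simulated data. Groups followed the sample titles, which give 1 day 14 array as replicate 4 where its source name gives 3.

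Every member may be named. Values by array were given for the 2 members of each role group with the highest levels and the 3 with the smallest adjusted p in each comparison, and for Dnaaf2 and Cfap20dc, the 2 that fell. Lists named up to 4 genes by level and 6 by adjusted p, and 1 gene that the rule names is not reported here. Alternatives were normexp background correction with an offset of 50, on median spot signals because the scans hold no mean signal, quantile and median scaling, the authors' table, no or a stricter filter, the mean of probes, slide or replicate number as a block, the compared ages alone, and leaving out arrays.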

Additional observations from a re-analysis of the deposited data

Results flagged for a closer look

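Of 90 groups of arrays checked, each 1 of the 17 members with values by array, or the mean of all tested members, at 1 age, 10 held an array far from the others. Chance flags about 1 in 20 groups, and the flags share arrays. Day 42 replicate 4, one of the 5 arrays that stand apart, accounted for 8 of them. Its levels on the log2 scale were 3.25 for Dnaaf5, 3.86 for Dnal4, 2.58 for Dnali1, 4.99 for Rsph3b, 3.22 for Tekt1, 2.71 for Tekt4 and 0.63 for Cfap161, all above the other 3 day 42 arrays, whose highest values were 2.22, 2.66, 1.94, 4.22, 2.46, 1.63 and 0.12. For Cfap300 it was below them, at 5.34 where the lowest of the others was 6.35. Day 7 replicate 4 was low for Dnah6, at 0.66 where the lowest of the other day 7 arrays was 1.35, and for Dnah10, at -0.58 where it was 0.31.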

How the results depend on the processing

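Over 36 other settings, none of the members past the test changed direction, and 0 members passed between day 4 and day 1 or day 7 and day 4 in any of them. The share of all genes that passed moved with the setting too. With all arrays it was 11.6% for day 14 over day 7, 3.69% for day 42 over day 14 and 26.7% for day 42 over day 1. Without the 5 arrays it was 38.6%, 13.6% and 46.6%. A change in a count, below or in the results above, is therefore not by itself a change in the members relative to other genes. For the remaining settings the share of all genes is not given, so their counts cannot settle this. For day 14 over day 7, where 5 members passed, the count was 1 with median scaling, 9 with quantile normalization, 11 with the authors' table, 10 with slide as a block, 17 with the compared ages alone, 25 without the 5 arrays and 21 without these and day 14 replicate 5. For day 42 over day 14, where 15 passed, it was 8 with the compared ages alone, 27 with the authors' table, 28 without the 5 arrays and 31 without the 6, and the median difference of 0.74 became 0.98 with median scaling, which moved the median of all genes to 0.30. The causes were not tested. Leaving out each array in turn gave 4 to 10 for day 14 over day 7, 6 to 18 for day 42 over day 14, 28 to 33 for day 42 over day 1 and 33 to 39 for any age. The medians then ran from -0.09 to 0.05 for day 4 over day 1, -0.40 to -0.21 for day 7 over day 4, 0.32 to 0.55 for day 14 over day 7, 0.65 to 0.79 for day 42 over day 14 and 0.77 to 0.87 for day 42 over day 1. With replicate number as a block the counts were 4, 16 and 31 for these last 3 comparisons and 35 for any age. Of pairs of arrays from different ages, 16 of 46 with the same number and 75 of 184 with different numbers correlated above 0.1. Only 4 of 24 arrays correlated best with their own number. The correlations ran from -0.85 to 0.88 and from -0.90 to 0.91, so this check could not exclude that the numbers pair the arrays. For day 42 over day 1, where 31 passed, 21 did with the compared ages alone, 25 with median scaling, 27 with normexp, 37 with the authors' table and 40 without the 5 arrays. Of the 31 calls, 10 were lost with the compared ages alone and 6 with median scaling, and 16 held in every setting, of 15 for day 42 over day 14, 2, and of 5 for day 14 over day 7, 1. The F-test over ages was not run with the compared ages alone. Members near background, such as Dnaaf1 and Dnaaf6b, are limited by signal.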
